A study of Mus musculus with 18 samples.

Results

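The genes described here are 10 mouse genes listed as mast cell proteases and receptors. They are the granule proteases Cpa3, Mcpt1, Mcpt2, Mcpt4, Mcpt8, Cma1 and Tpsb2, of which Mcpt8 is a basophil protease, and the receptors Kit, Fcer1a and Ms4a2. They were taken by name, as every non-control probe whose transcript accession belongs to one of these symbols, which gave 11 probes of the 56605 on the array and 10 of its 22911 named genes. Their levels were read on 18 arrays from uterus, eutopic endometrium and ectopic lesions of ERBOE and PRCre mice. The carboxypeptidase Cpa3, the chymases Mcpt4 and Cma1 and the IgE receptor chain Fcer1a read lower in ERBOE than in PRCre uterus, and Kit read higher in ERBOE lesions than in PRCre lesions, but no member passed the test across all features in any of the 9 pairwise comparisons or the 3 differences between genotype effects.

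Mast cells are tissue leukocytes filled with granules that hold histamine, heparin and large amounts of proteases. They depend on Kit, the receptor for stem cell factor, and they release their granules when antigen crosslinks IgE bound to the high-affinity IgE receptor, of which Fcer1a encodes the ligand-binding alpha chain and Ms4a2 the signalling beta chain. In the mouse, connective tissue mast cells store carboxypeptidase A3 (Cpa3), the chymases Mcpt4 and Cma1 and the tryptase Tpsb2, whereas mucosal mast cells store the chymases Mcpt1 and Mcpt2, and Mcpt8 is a protease of basophils. Mast cells reside in the wall of the rodent uterus, and they have been described in endometriotic lesions.

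The overexpressing genotype was ERBOE, mice that overexpress oestrogen receptor beta, and its control was PRCre/+, a line that by its name carries Cre under the progesterone receptor gene. The labels do not give the cells in which the overexpression is active. For ERBOE and PRCre lesions, a 2 mm punch of ERBOE or PRCre endometrium was implanted in a wild-type C57BL/6J host of 8 weeks, so host cells that entered a lesion carried neither allele. For ERBOE and PRCre eutopic endometrium, the ERBOE or PRCre mouse was itself the host, received a wild-type C57BL/6J punch at 8 weeks, and kept its own uterus. Lesions and eutopic endometrium were collected at estrus 4 weeks after surgery, and ERBOE and PRCre uterus was collected at estrus from mice of 12 weeks. Each array carried total RNA pooled from 3 animals, with 3 pools from 9 animals in each of the 6 groups, so SDs and p-values measure the spread between pools. One free-text label of the ERBOE samples taken after surgery says that endometriosis was absent, and the design text speaks of harvested lesions where it describes eutopic endometrium. Groups follow the sample titles.

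The 75th percentile signal ran from 237 on PRCre uterus array 1 to 739.97 on ERBOE eutopic array 1, with 53.1% to 73.0% of an array's probes well above background and 0 saturated spots. Arrays of a group correlated at 0.929 to 0.972 over all tested features. Esr2, which encodes oestrogen receptor beta, read 2.09 to 2.76 on the 9 ERBOE arrays and 2.15 to 2.83 on the 9 PRCre arrays by its brightest probe, and its ERBOE minus PRCre differences were -0.24, 0.01 and -0.25 in uterus, eutopic endometrium and lesions (limma standard error 0.20 each, adjusted p = 0.711, 1 and 0.994). Whether that probe reads the overexpressed transcript is unknown, and the genotype labels were not checked by it. Lesions carried fat markers: 7 adipocyte genes summed to 223 to 285 times the array's 75th percentile signal in ERBOE lesions and 32.8 to 206 in PRCre lesions, against 1.36 to 14.2 in the other groups. The 6 uterine identity genes Hoxa10, Hoxa11, Pgr, Esr1, Hand2 and Wt1 were well above background on every array.

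Of the 5 genes whose upstream sequence is shown, Cpa3, Mcpt4 and Cma1 moved most closely together from array to array. Fcer1a followed them less closely, and Kit least. The chymase genes sit in a cluster: Cma1, Mcpt1, Mcpt2, Mcpt4 and Mcpt8 lie within chr14:55941451-56085499 of GRCm38.p6. Cpa3 is at chr3:20215616-20242209, Tpsb2 at chr17:25366308-25368096, Kit at chr5:75574987-75656722, Fcer1a at chr1:173221269-173227232 and Ms4a2 at chr19:11615517-11623790 of the same build. The 150 bases before each transcript start, from RefSeq on GRCm38.p6, were searched on both strands for AGATAA, its variant AGATAG, the form TGATAA and its variant TGATAG, spellings of the site that GATA factors recognise. Gata2, a GATA factor that mast cells require, is among the genes described further on. Sequences are written 5′ to 3′ on the strand of the gene, and capitals mark a GATA motif on either strand:
Cpa3 (chr3:20242182-20242331, minus strand): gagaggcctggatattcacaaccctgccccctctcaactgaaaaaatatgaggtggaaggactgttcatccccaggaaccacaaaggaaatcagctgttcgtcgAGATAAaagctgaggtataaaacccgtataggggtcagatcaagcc
Mcpt4 (chr14:56062311-56062460, minus strand): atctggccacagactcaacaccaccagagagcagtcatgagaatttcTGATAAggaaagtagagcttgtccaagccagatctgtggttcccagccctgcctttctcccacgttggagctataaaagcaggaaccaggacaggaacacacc
Cma1 (chr14:55944676-55944825, minus strand): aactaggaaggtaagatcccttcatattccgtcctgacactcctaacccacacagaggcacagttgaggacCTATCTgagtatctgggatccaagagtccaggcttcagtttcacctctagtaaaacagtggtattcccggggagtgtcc
Fcer1a (chr1:173227230-173227379, minus strand): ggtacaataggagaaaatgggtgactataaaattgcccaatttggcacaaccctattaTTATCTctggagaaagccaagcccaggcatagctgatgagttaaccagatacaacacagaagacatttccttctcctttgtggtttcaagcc
Kit (chr5:75574837-75574986, plus strand): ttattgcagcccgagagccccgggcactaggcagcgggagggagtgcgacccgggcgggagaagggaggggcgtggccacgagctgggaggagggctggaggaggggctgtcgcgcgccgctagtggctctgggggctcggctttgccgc
The Cpa3, Mcpt4, Cma1 and Fcer1a windows each held 1 such motif, read on the opposite strand in Cma1 and Fcer1a. No motif lay in the Kit window. Of the 8 members with a RefSeq promoter, 6 held the motif, against 16.0% of 32851 promoters of the same length. Members are counted here by gene, and the 32851 promoters by transcript start. Kit has 2 starts, neither with the motif. Cma1, Mcpt1 and Mcpt4, which held it, are related genes of the chymase cluster. A second motif, CACATG, a spelling of the E-box that Mitf can bind, was in 0 of the 8 and in 7.2% of all promoters. These are matches of letters, not measured sites, and whether they bear on how the genes moved together was not tested.

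Levels are given as log2 of the background-subtracted signal minus the array's 75th percentile, so 0 is the array's 75th percentile signal, and levels of different genes cannot be set against each other. Of the 10 genes, 6 (Cpa3, Mcpt4, Cma1, Tpsb2, Kit and Fcer1a) were well above background on 18 of 18 arrays and were tested. The other 4 (Mcpt1, Mcpt2, Mcpt8 and Ms4a2) failed the filter, which asked for a signal well above background on at least 3 arrays. The tryptase Tpsab1, a near-identical copy of Tpsb2, had no matched probe, and Tpsb2 signal may include it. Likewise Mcpt1, Mcpt2 and Mcpt4 are close relatives whose probes may share target.

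The mucosal chymases were read on few arrays. Mcpt1 was well above background on 1 PRCre uterus array, at -1.86, and on 1 PRCre eutopic array, at -2.07, and lay between -7.44 and -5.67 on the other 16. Mcpt2 was well above background on 2 ERBOE uterus arrays, at -4.16 and -3.31, and on no other array. Mcpt8, the basophil protease, was well above background on 1 ERBOE lesion array, at -3.27, and on 1 PRCre eutopic array, at -4.25, and its spot on PRCre uterus array 2 was a scanner outlier. Ms4a2 was well above background by 1 of its 2 probes on 1 PRCre lesion array, at -5.41, and by the other on 0 arrays. The signals of these 4 genes are thus mostly bounds. An approximate bound set the measured group's mean against the other group, whose arrays were raised to the lowest level called well above background. The measured group's mean includes its arrays near background as read, so the true fold may be smaller or larger. By it Mcpt2 was 1.74-fold lower in ERBOE eutopic endometrium than in ERBOE uterus. Mcpt1 was 1.11-fold lower in ERBOE than in PRCre eutopic endometrium and 1.18-fold lower in PRCre lesions than in PRCre uterus. Mcpt8 was 1.19-fold higher in ERBOE lesions than in ERBOE eutopic endometrium. Each of these rests on 1 or 2 measured arrays, and the probes were not tested.

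**Figure D1:**
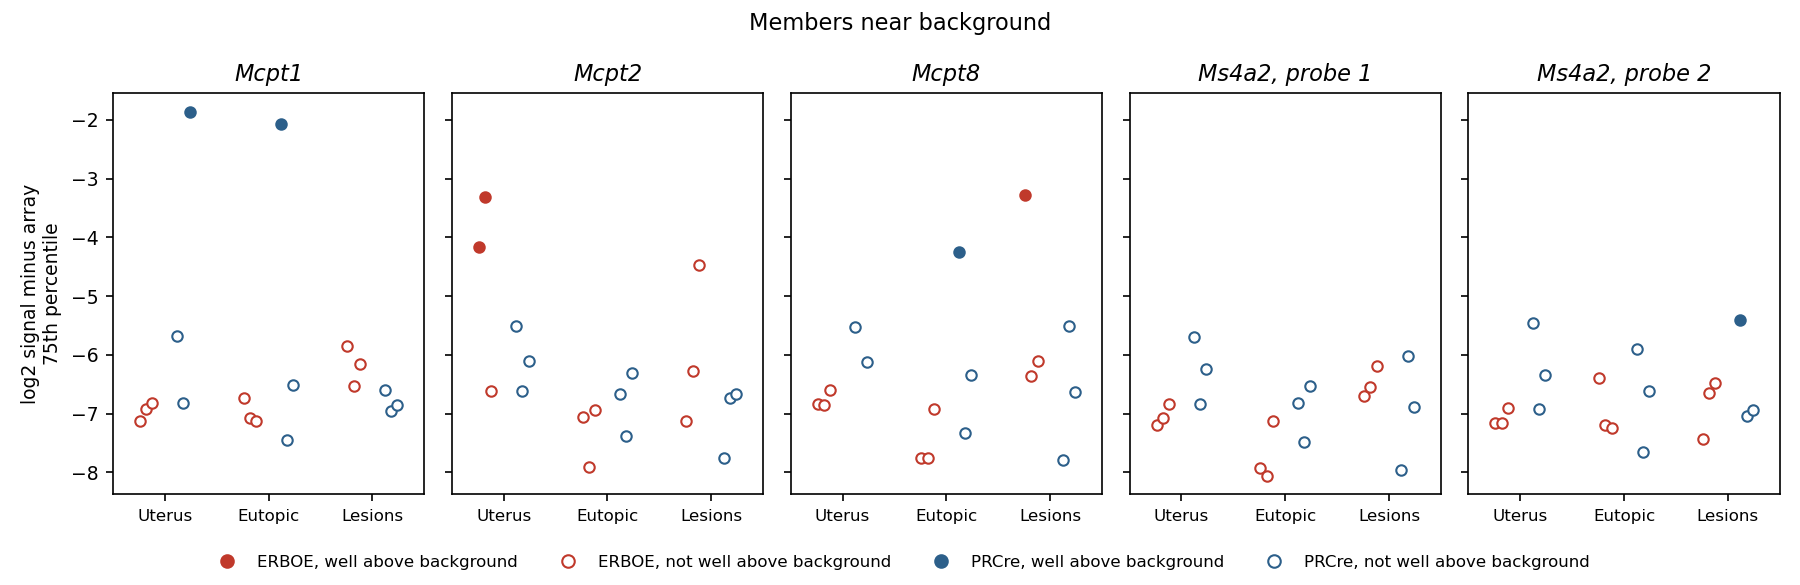
Level of the 5 probes of Mcpt1, Mcpt2, Mcpt8 and Ms4a2 on each array (log2 signal minus the array's 75th percentile), by tissue, with ERBOE left of PRCre; filled points were well above background. Most points are open, and the filled ones are single arrays, such as Mcpt1 at -1.86 and -2.07 in PRCre samples and Mcpt2 at -4.16 and -3.31 in ERBOE uterus.

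The 6 measured genes varied widely over the 18 arrays. Cpa3 ran from -3.86 to 0.21, a 16.9-fold range, Mcpt4 covered a 19.6-fold range and Cma1 a 15.2-fold range, while Tpsb2 covered 4.81-fold. Much of that spread lay inside groups: the pooled within-group SD was 0.86 log2 units for Cpa3, 0.84 for Mcpt4 and 0.80 for Cma1. In PRCre samples 1 pool stood high in each tissue. Cpa3 read 0.21 on PRCre uterus array 1, 0.02 on PRCre eutopic array 1 and 0.00 on PRCre lesion array 1, against -2.47 to -1.27 on the other 6 PRCre arrays, and Mcpt4 and Cma1 were also highest on array 1 in each PRCre tissue. The labels do not say that the array number links animals across tissues.

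**Figure D2:**
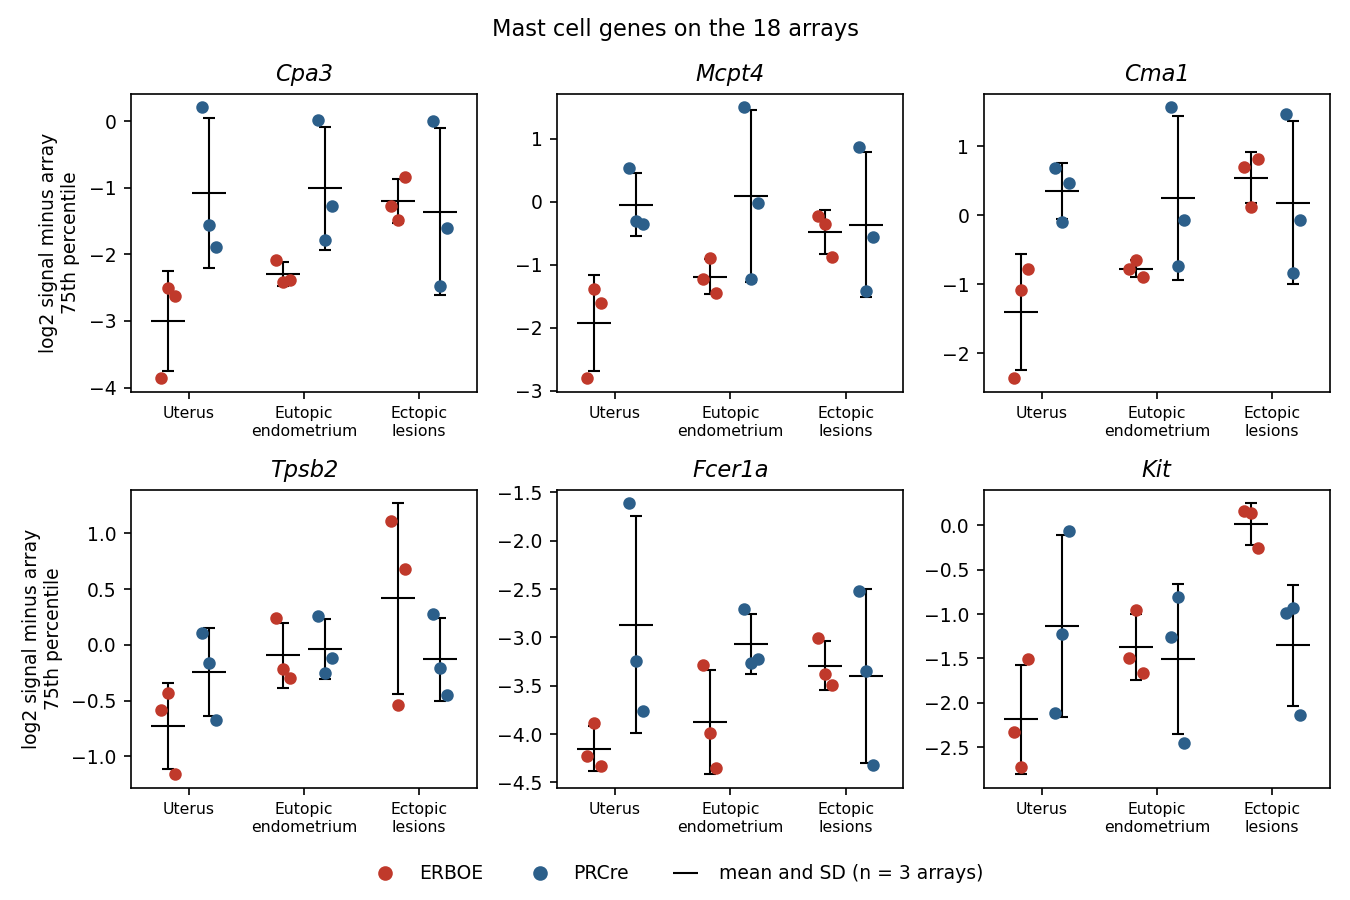
Level of Cpa3, Mcpt4, Cma1, Tpsb2, Fcer1a and Kit on each array (log2 signal minus the array's 75th percentile), by tissue, with ERBOE in red left of PRCre in blue; black bars are the mean and SD of 3 arrays. ERBOE uterus is the lowest group for all 6 genes, and Kit in ERBOE lesions sits between -0.26 and 0.16.

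By group mean, Cpa3 was lowest in ERBOE uterus at -3.0 ± 0.75 (SD, n = 3 arrays), followed by ERBOE eutopic endometrium at -2.29 ± 0.18, PRCre lesions at -1.36 ± 1.25, ERBOE lesions at -1.20 ± 0.33, PRCre uterus at -1.08 ± 1.13 and PRCre eutopic endometrium at -1.01 ± 0.93. Each neighbour in that order differed by less than the larger SD of the pair. Kit had another order, from -2.19 ± 0.61 in ERBOE uterus through -1.51 ± 0.84 in PRCre eutopic endometrium, -1.37 ± 0.37 in ERBOE eutopic endometrium, -1.35 ± 0.68 in PRCre lesions and -1.14 ± 1.03 in PRCre uterus to 0.01 ± 0.24 in ERBOE lesions. The top neighbours of the Kit order, ERBOE lesions and PRCre uterus, overlapped, since 1 PRCre uterus array read -0.07.

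In the uterus, Cpa3, both chymases and Fcer1a read lower in ERBOE. Cpa3, the carboxypeptidase, read -3.86, -2.51 and -2.62 on the ERBOE arrays, against 0.21, -1.56 and -1.89 on the PRCre arrays. The chymase Mcpt4 read -2.80, -1.38 and -1.60 in ERBOE uterus, against 0.53, -0.31 and -0.36 in PRCre uterus. Every ERBOE array lay below every PRCre array for both genes. Cma1, the other chymase, read -2.36, -1.08 and -0.77 in ERBOE uterus and 0.68, -0.10 and 0.47 in PRCre uterus. Fcer1a read -4.23, -3.89 and -4.33 in ERBOE uterus and -1.61, -3.24 and -3.76 in PRCre uterus, again without overlap. Its ERBOE uterus levels were close to the lowest level called well above background on those arrays, -4.86, -4.82 and -4.57. The tryptase Tpsb2 read -0.58, -0.43 and -1.16 in ERBOE uterus, against 0.11, -0.16 and -0.67 in PRCre uterus. Kit read -2.33, -2.72 and -1.51 in ERBOE uterus, against -2.11, -1.22 and -0.07 in PRCre uterus. The groups overlapped for Tpsb2 and Kit.

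The ERBOE minus PRCre log2 difference in uterus was -1.92 ± 0.65 (limma SE) for Cpa3, a fold of 0.264 (95% interval 0.101 to 0.695), with an adjusted p of 0.397. Mcpt4 differed by -1.88 ± 0.64 (adjusted p = 0.397) and Cma1 by -1.75 ± 0.61 (adjusted p = 0.398). For Fcer1a the difference was -1.28 ± 0.51 (adjusted p = 0.433), for Kit -1.05 ± 0.53 (adjusted p = 0.532) and for Tpsb2 -0.48 ± 0.38 (adjusted p = 0.694). All 6 were lower, with a median of -1.52 against -0.12 over all 33176 features tested, of which 40.3% were higher. No member passed limma's test at an adjusted p of 0.05, nor did any feature (0%), while 4 members had an unadjusted p under 0.05, as did 9.93% of all features. Groups did not overlap, ERBOE lower, for 4 members and for 8.77% of all features. In bulk RNA, fewer mast cells and less of these transcripts per mast cell cannot be told apart. PRCre uterus array 1, the dimmest array, weighed on these values: without it the difference was -1.27 for Cpa3 and -0.65 for Fcer1a, but -1.59 for Mcpt4, -1.59 for Cma1 and -1.54 for Kit. Other arrays weighed on the latter genes. ERBOE uterus array 1 read lowest for both chymases, and without it the Cma1 difference was -1.27. Without PRCre uterus array 3 the Kit difference was -0.52. Each of the 3 slides held 1 uterus array of each genotype, and within slides 1, 2 and 3 the Cpa3 difference was -0.73, -0.95 and -4.08, the Mcpt4 difference -1.24, -1.07 and -3.33, the Cma1 difference -1.24, -0.98 and -3.04, the Fcer1a difference -0.58, -0.65 and -2.62 and the Kit difference -1.44, -1.50 and -0.21.

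Markers of other cells moved with genotype in the same arrays. The 6 pan-leukocyte genes, such as Ptprc, which encodes CD45, summed to 28.8 to 35.8 in ERBOE uterus and 40.6 to 93.1 in PRCre uterus, in units of the array's 75th percentile signal, and 5 of 6 were lower. All 7 natural killer cell genes were lower, summing to 2.57 to 3.78 in ERBOE uterus and 5.85 to 9.98 in PRCre uterus. Macrophage genes, 7 of 7 lower, summed to 30.4 to 46.0 in ERBOE uterus and 34.7 to 68.1 in PRCre uterus. Epithelial genes went the other way, 8 of 8 higher, summing to 267 to 524 in ERBOE uterus and 132 to 202 in PRCre uterus. Endothelial genes were lower in 5 of 5, with 4.28 to 6.97 in ERBOE uterus and 5.09 to 12.3 in PRCre uterus. Basophil genes summed to 2.79 to 3.63 in ERBOE uterus and 3.87 to 5.01 in PRCre uterus. Eosinophil genes, 5 of 8 tested lower, summed to 1.33 to 2.35 in ERBOE uterus and 1.90 to 5.66 in PRCre uterus. Of all features, 40.3% were higher in ERBOE uterus. None of these marker genes passed the test in uterus, and their part in the mast cell differences was not tested.

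In eutopic endometrium the same genes leaned the same way, with smaller estimates. Cpa3 read -2.09, -2.41 and -2.38 in ERBOE, against 0.02, -1.78 and -1.27 in PRCre. Fcer1a read -3.29, -3.99 and -4.35 in ERBOE and -2.71, -3.27 and -3.22 in PRCre. In both, each ERBOE array lay below each PRCre array, though for Fcer1a the nearest arrays were -3.29 and -3.27. Mcpt4 read -1.23, -0.90 and -1.45 in ERBOE and 1.5, -1.22 and -0.02 in PRCre, and Cma1 read -0.77, -0.65 and -0.89 in ERBOE and 1.57, -0.74 and -0.07 in PRCre, and both overlapped. The differences were -1.29 ± 0.65 for Cpa3, -1.28 ± 0.64 for Mcpt4, -1.02 ± 0.61 for Cma1 and -0.81 ± 0.51 for Fcer1a, and -0.05 ± 0.38 for Tpsb2 and 0.14 ± 0.53 for Kit (limma, adjusted p = 1 for all 6). The median was -0.92, against -0.01 over all features. No member and no feature (0%) passed, no member had an unadjusted p under 0.05 (2.94% of features), and 2 members did not overlap, ERBOE lower, against 4.03% of all features. Without PRCre eutopic array 1 the differences were -0.77 for Cpa3, -0.57 for Mcpt4 and -0.37 for Cma1. Slide 1 held no eutopic array, and within slides 2 and 3 the difference was -0.82 and -1.52 for Cpa3, -1.22 and -1.31 for Mcpt4 and -0.07 and -1.17 for Fcer1a. The direction for Tpsb2 and Kit turned when single arrays were left out. Leukocyte genes summed to 25.6 to 42.1 in ERBOE and 27.1 to 55.4 in PRCre eutopic endometrium. The larger uterus estimate for Cpa3 rested mostly on slide 3, at -4.08 against -0.73 and -0.95 on slides 1 and 2. The genotype effect in eutopic endometrium minus that in uterus was 0.63 ± 0.92 for Cpa3 and 0.60 ± 0.90 for Mcpt4. Neither passed (limma, adjusted p = 0.994 for both), so a smaller genotype effect in eutopic endometrium was not established.

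In the lesions the proteases overlapped between genotypes, and Kit did not. Kit read 0.16, 0.14 and -0.26 in ERBOE lesions, against -0.99, -0.93 and -2.14 in PRCre lesions, without overlap. Its difference was 1.37 ± 0.53, a fold of 2.58 (95% interval 1.18 to 5.63), with an adjusted p of 0.994 in limma. Within slide 1 it was 2.29 and within slide 2 it was 0.70, and slide 3 held no PRCre lesion array. Cpa3 read -1.28, -1.49 and -0.84 in ERBOE lesions and 0.00, -2.47 and -1.61 in PRCre lesions, with a difference of 0.16 ± 0.65. Mcpt4 read -0.22, -0.36 and -0.88 in ERBOE lesions and 0.87, -1.41 and -0.56 in PRCre lesions. Cma1 read 0.70, 0.12 and 0.82 in ERBOE lesions and 1.47, -0.84 and -0.07 in PRCre lesions. For these 3 proteases the ERBOE values lay inside the PRCre range. Tpsb2 read 1.11, -0.54 and 0.68 in ERBOE lesions and 0.28, -0.21 and -0.45 in PRCre lesions, and Fcer1a read -3.01, -3.38 and -3.49 in ERBOE lesions and -2.52, -3.35 and -4.32 in PRCre lesions.

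The lesion differences were -0.12 ± 0.64 for Mcpt4, 0.36 ± 0.61 for Cma1, 0.54 ± 0.38 for Tpsb2 and 0.11 ± 0.51 for Fcer1a, with adjusted p between 0.994 and 0.999. The 95% interval for Cpa3, -1.24 to 1.55, still allows a change of more than 1 log2 unit either way. The members' median was 0.26 against -0.06 over all features, and 0 members and 0% of features passed, while 1 member (Kit) had an unadjusted p under 0.05, as did 4.42% of features. Kit was the 1 member without overlap, ERBOE higher, against 5.33% of all features higher and 6.11% lower. Leaving out single arrays turned the sign for Cpa3, Mcpt4, Cma1 and Fcer1a. Genes of other cells known to carry Kit (interstitial cells of Cajal and melanocytes) summed to 5.87 to 7.25 in ERBOE lesions and 4.36 to 6.94 in PRCre lesions, with 3 of 7 tested higher. Of all features, 43.9% were higher in ERBOE lesions. Adipocyte genes were higher in 7 of 7, natural killer cell genes lower in 7 of 7, and neither list had a gene that passed. Their part was not tested.

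**Figure D3:**
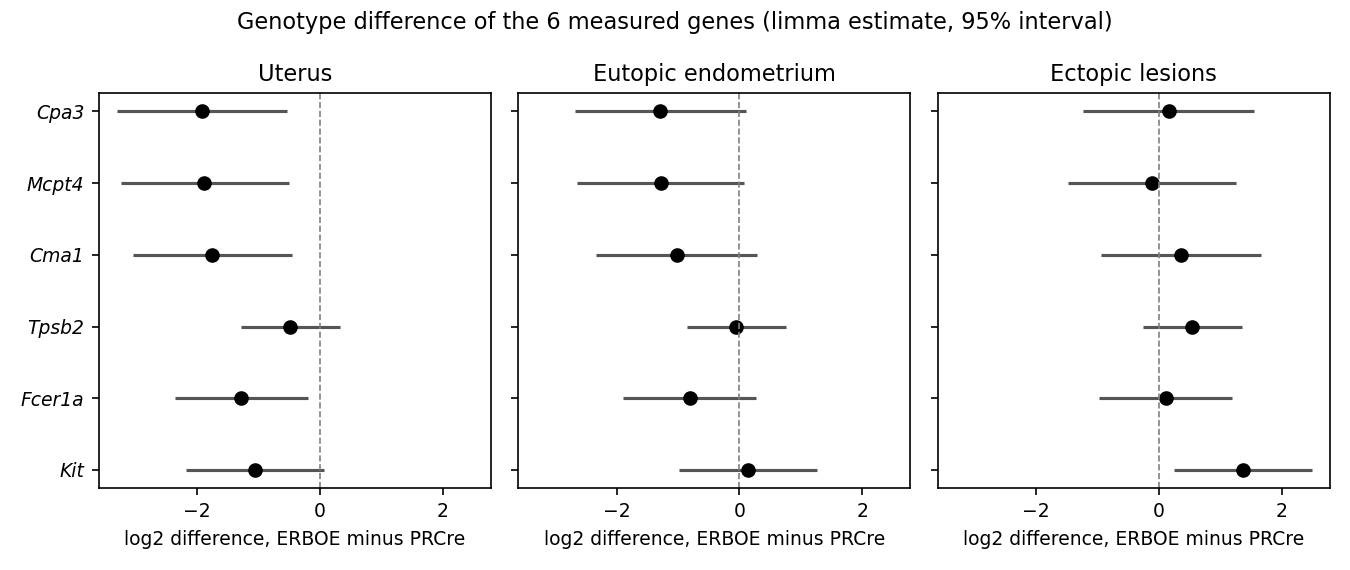
ERBOE minus PRCre log2 difference of the 6 measured genes in uterus, eutopic endometrium and lesions; points are limma estimates and bars 95% intervals. In uterus the Cpa3, Mcpt4, Cma1 and Fcer1a intervals lie below 0, in lesions the Kit interval (0.24 to 2.49) lies above 0, and none of these passed after adjustment.

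Set against ERBOE uterus, ERBOE lesions had higher levels of all 6 genes. Kit, from 0.16, 0.14 and -0.26 in ERBOE lesions against -2.33, -2.72 and -1.51 in ERBOE uterus, differed by 2.20 ± 0.53, a fold of 4.59 (95% interval 2.10 to 10.0), with an adjusted p of 0.059 in limma. Cma1 differed by 1.95 ± 0.61 (adjusted p = 0.161), Tpsb2 by 1.14 ± 0.38 (adjusted p = 0.188) and Cpa3 by 1.79 ± 0.65 (adjusted p = 0.249). Mcpt4 differed by 1.44 ± 0.64 (adjusted p = 0.384) and Fcer1a by 0.86 ± 0.51 (adjusted p = 0.560). No member passed, against 1.24% of all features (411 of 33176), and 5 members had an unadjusted p under 0.05, against 11.9% of all features. For 5 members the groups did not overlap, lesions higher, against 8.8% of all features higher and 11.3% lower. The median was 1.62, against -0.07. Kit passed after normexp background correction (adjusted p = 0.0327), among features well above background on all 18 arrays (0.0449) and with weighted arrays (0.00374). Tpsb2 passed with slide as a block (0.0495), with array weights (0.0197) and without ERBOE lesion array 2 (0.0281), and Cma1 passed with array weights (0.0294). Within slides 1, 2 and 3 the Kit difference was 1.65, 2.46 and 2.49, and the Cma1 difference 0.89, 1.89 and 3.06. Without ERBOE uterus array 1 the difference was 1.47 for Cma1 and 1.00 for Mcpt4, their smallest over the alternative settings.

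Against ERBOE eutopic endometrium, which was taken from other animals, ERBOE lesions were higher for Kit by 1.38 ± 0.53 (adjusted p = 0.357), Cma1 by 1.32 ± 0.61 (0.471), Cpa3 by 1.09 ± 0.65 (0.622), Mcpt4 by 0.71 ± 0.64 (0.771), Fcer1a by 0.59 ± 0.51 (0.758) and Tpsb2 by 0.51 ± 0.38 (0.711). Again 0 members passed in limma, against 0.618% of features, and 2 had an unadjusted p under 0.05, against 10.5%. For Cpa3, Mcpt4, Cma1 and Kit, 4 members, the groups did not overlap, lesions higher, against 7.02% of all features higher and 13.2% lower. ERBOE eutopic endometrium against ERBOE uterus gave a median of 0.67 over the 6 members, all of them higher, with 0 passing (0% of features), none with an unadjusted p under 0.05 (3.29% of features) and 2 without overlap (Cpa3 and Tpsb2, against 6.93% of features higher and 4.7% lower).

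Markers of several other cell types moved with these ERBOE tissue differences. Against ERBOE uterus, 6 of 7 adipocyte genes passed in ERBOE lesions, with a median difference of 8.91, and Adipoq differed by 9.66 (adjusted p = 0.0064). Macrophage genes were higher in 7 of 7, summing to 63.3 to 134 in ERBOE lesions and 30.4 to 46.0 in ERBOE uterus, and pan-leukocyte genes in 6 of 6, summing to 44.4 to 71.7 and 28.8 to 35.8 in the same groups. Endothelial genes were higher in 5 of 5, summing to 7.34 to 8.43 in ERBOE lesions and 4.28 to 6.97 in ERBOE uterus, and epithelial genes were lower in 8 of 8, summing to 144 to 199 in ERBOE lesions and 267 to 524 in ERBOE uterus. The eosinophil list was mixed, with 5 of 8 tested genes higher, 3 lower and a median of 0.31, and summed to 4.87 to 5.38 in ERBOE lesions and 1.33 to 2.35 in ERBOE uterus. In it Ear2 rose by 2.29 ± 0.45 (adjusted p = 0.0228), while Il5ra differed by -1.35 ± 0.61 (adjusted p = 0.394) and Ccr3 by -0.57 ± 0.87 (adjusted p = 0.903). The basophil list had 3 of 6 tested genes higher, 3 lower and a median of 0.12, and summed to 5.30 to 6.52 in ERBOE lesions and 2.79 to 3.63 in ERBOE uterus. In it Il3ra, an interleukin-3 receptor chain, rose by 1.02 ± 0.20 (adjusted p = 0.0254), while Il4 differed by -0.54 ± 0.87 (adjusted p = 0.913). The other Kit-expressing cell list summed to 5.87 to 7.25 in ERBOE lesions and 6.42 to 7.62 in ERBOE uterus. Against ERBOE eutopic endometrium that list summed to 5.87 to 7.25 in ERBOE lesions and 9.10 to 12.6 in ERBOE eutopic endometrium, and genes of endometrial stroma and uterine identity, lower in 6 of 6, to 26.2 to 45.0 in ERBOE lesions and 49.9 to 80.2 in ERBOE eutopic endometrium. Of all features, 43.7% were higher in ERBOE lesions than in ERBOE uterus, and 38.8% than in ERBOE eutopic endometrium. The part of these markers in the mast cell differences was not tested.

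In PRCre mice the members' differences between tissues were small against their intervals. The members' median was -0.25 for PRCre lesions minus PRCre uterus, -0.21 for PRCre lesions minus PRCre eutopic endometrium and -0.01 for PRCre eutopic endometrium minus PRCre uterus. All 18 of these member differences lay between -0.53 and 0.20, and their 95% intervals reached from -1.82 to 1.5, which allows changes of more than 1 log2 unit. In limma 0 members passed in any of the 3, against 0.00904%, 0.00301% and 0% of features, and none had an unadjusted p under 0.05, against 11.9%, 3.97% and 6.68%. For no member were the groups apart, against 4.96% of features higher and 9.17% lower for lesions minus uterus, 2.89% and 4.02% for lesions minus eutopic endometrium, and 3.6% and 6.42% for eutopic endometrium minus uterus.

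The difference between genotype effects was tested directly. From uterus to lesions the ERBOE minus PRCre difference shifted upward by 2.42 ± 0.74 for Kit (unadjusted p = 0.00564, adjusted p = 0.551 in limma), 2.11 ± 0.86 for Cma1 (adjusted p = 0.661) and 2.08 ± 0.92 for Cpa3 (adjusted p = 0.722). Mcpt4 shifted by 1.76 ± 0.90, Fcer1a by 1.39 ± 0.72 and Tpsb2 by 1.03 ± 0.53, with adjusted p between 0.764 and 0.766. Over the alternative settings the shift spanned 1.17 to 2.75 for Cpa3, 0.92 to 2.38 for Mcpt4, 1.60 to 2.75 for Cma1 and 0.54 to 1.83 for Fcer1a, each lowest with array weights and, for Cpa3, Mcpt4 and Cma1, highest without PRCre lesion array 1. All 6 were positive, with a median of 1.92 against 0.05 over all features, 3 had an unadjusted p under 0.05, against 6.75% of features, and 0 members and 0% of features passed. Between eutopic endometrium and lesions the members' median shift was 1.19, and between uterus and eutopic endometrium it was 0.62, with 0 members and 0% of features passing in each and no member at an unadjusted p under 0.05 (1.62% and 5.1% of features). The shift from uterus to lesions draws on the same ERBOE uterus arrays as the uterus comparison, which were the lowest group for each of the 6 genes.

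From array to array, Cpa3, Mcpt4 and Cma1 ran closely in parallel, and Fcer1a followed Cpa3 more than the chymases. Over the 18 arrays, Pearson's r was 0.93 between Cpa3 and Cma1, 0.92 between Cpa3 and Mcpt4, 0.92 between Mcpt4 and Cma1 and 0.81 between Cpa3 and Fcer1a. With each group's mean removed these were 0.87, 0.86, 0.91 and 0.70, so these pairs still ran together among pools of the same group. Fcer1a had r of 0.72 to Mcpt4 and 0.65 to Cma1, and 0.52 and 0.42 with group means removed. Tpsb2 had r of 0.57 to Cpa3 and 0.57 to Fcer1a, and 0.46 and 0.62 with group means removed. Kit had r of 0.21 to Cpa3 and 0.44 to Cma1 over all arrays, and -0.28 and 0.06 with group means removed. The arrays share slides and 1 scaling per array, and these are descriptions without a test.

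**Figure D4:**
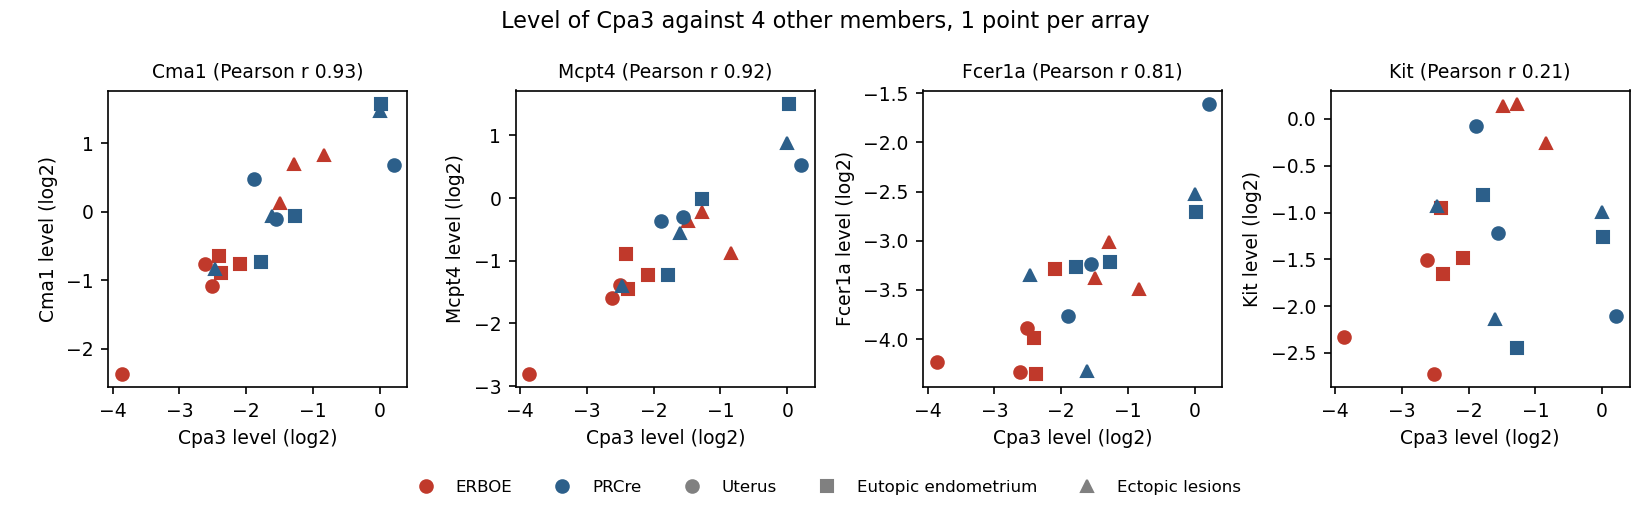
Level of Cma1, Mcpt4, Fcer1a and Kit against that of Cpa3, 1 point per array (log2 signal minus the array's 75th percentile), ERBOE in red and PRCre in blue, with shape giving the tissue. Cma1 and Mcpt4 rise along a line with Cpa3 (Pearson r 0.93 and 0.92), and Kit scatters (0.21).

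All 33176 features were ranked by r to Cpa3, with Cpa3 itself counted at the top. Cma1 stood at place 2, Mcpt4 at place 3 and Fcer1a at place 8, whereas Tpsb2 stood at 472 and Kit at 9702. The named genes outside the members with the highest r were Tpsg1 (0.904), which encodes a transmembrane mast cell tryptase, Cma2 (0.838), a chymase gene, Gcm2 (0.835), a transcription factor known from the parathyroid, Abcb1b (0.794), a drug efflux pump, and Gm10375 (0.771), a predicted gene. With group means removed the highest were Tceal1 (0.922), 9930014A18Rik (0.865), Tigd4 (0.856), Cahm (0.855) and E2f5 (0.851). Tpsg1 was not well above background on any uterus array, and Cma2 read -1.34, -0.97 and -1.71 in ERBOE uterus, against -0.01, -0.37 and -1.05 in PRCre uterus. The Cma2 groups overlapped there, and the difference was -0.86 ± 0.40 (adjusted p = 0.505).

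A list of 42 further genes of mast cell biology gave context, 35 of which were tested. In uterus 23 were lower and 12 higher in ERBOE, while 40.3% of all features were higher. The list had a median of -0.51 there, against -0.12 over all features, and 0 passed. After Tpsg1, which was too dim there to name a level, its largest differences were in Adora3, the adenosine A3 receptor that acts on mast cells, and Gata1, a factor of mast cells and red cells. Adora3 read -1.61, -1.97 and -2.32 in ERBOE uterus, against 0.33, -0.86 and -0.10 in PRCre uterus, a difference of -1.76 ± 0.58 (adjusted p = 0.393). Gata1 read -3.83, -4.03 and -4.18 in ERBOE uterus, against -1.78, -2.99 and -2.36 in PRCre uterus, a difference of -1.64 ± 0.69 (adjusted p = 0.457). Neither gene overlapped between the genotypes in uterus, ERBOE lower, as held for 8.77% of all features. Both were picked for their large differences, which favours groups without overlap. The list was balanced in eutopic endometrium (15 higher, 20 lower, median -0.10) and in lesions (15 higher, 20 lower, median -0.07), with 0 passing in each. In eutopic endometrium Il9r, the interleukin-9 receptor, and Tpsg1 were too dim to compare, with no more than 1 measured array in either genotype.

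The genes named for their role in mast cell supply and function did not pass by genotype. Kitl, the stem cell factor that binds Kit, differed by -0.24 ± 0.32 in uterus, 0.15 ± 0.32 in eutopic endometrium and -0.12 ± 0.32 in lesions. Gata2 differed by 0.57 ± 0.30, 0.38 ± 0.30 and -0.20 ± 0.30 in the same tissues, and Mitf by -0.08 ± 0.60, -0.43 ± 0.60 and -0.56 ± 0.60. Fcer1g, the gamma chain that the IgE receptor shares with other Fc receptors, differed by -0.27, -0.03 and -0.07 (SE 0.50 each). Hdc, the enzyme that makes histamine, spread widely within groups, with 0.64, 0.81 and 0.56 in ERBOE uterus against -0.34, 2.26 and 4.52 in PRCre uterus, and its differences were -1.48 ± 1.31 in uterus, 0.51 ± 1.31 in eutopic endometrium and 1.45 ± 1.31 in lesions. Ltc4s, the leukotriene C4 synthase, differed by 0.94 ± 0.42 in lesions (adjusted p = 0.994).

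Il33, an alarmin cytokine that activates mast cells through the receptor Il1rl1, ran opposite to the proteases in uterus. Its uterus levels were -1.24, -0.45 and -0.84 in ERBOE, against -2.17, -3.0 and -2.0 in PRCre. Eutopic levels were 0.11, -1.93 and -0.45 in ERBOE, against -2.05, -2.80 and -2.27 in PRCre. Lesions had 2.58, 1.48 and 1.65 in ERBOE, against 1.13, 0.88 and -0.10 in PRCre. In each tissue all ERBOE arrays lay above all PRCre arrays, as held for 6.24%, 5.1% and 5.33% of all features. The differences were 1.55 ± 0.50, 1.61 ± 0.50 and 1.27 ± 0.50, and none passed (limma, adjusted p = 0.393, 1 and 0.994). Slide by slide, the uterus difference was 1.17, 2.55 and 0.93, the eutopic difference 2.37 and 1.23 and the lesion difference 1.58 and 0.65.

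Between tissues Il33 rose in ERBOE lesions, by 2.75 ± 0.50 against ERBOE uterus (adjusted p = 0.0143) and by 2.66 ± 0.50 against ERBOE eutopic endometrium (adjusted p = 0.0224). The background share of calls was 1.24% and 0.618% of features in these 2 comparisons. In PRCre lesions it was higher by 3.03 ± 0.50 than in PRCre uterus (adjusted p = 0.0557) and by 3.01 ± 0.50 than in PRCre eutopic endometrium (adjusted p = 0.0923). The PRCre differences missed the threshold in the reported fit and passed in others. Against PRCre uterus Il33 passed under 7 alternatives, with adjusted p = 0.0269 without PRCre lesion array 3, 0.0273 with median scaling, 0.0288 with normexp, 0.0291 with array weights, 0.0375 with quantile normalization, 0.0377 when probes had to be measured on all 18 arrays and 0.0442 under the replicate block. Against PRCre eutopic endometrium it passed under 2, with adjusted p = 0.0327 without PRCre lesion array 3 and 0.0397 with array weights. The difference between these genotypes' tissue effects was -0.28 ± 0.70 against uterus (adjusted p = 0.990) and -0.35 ± 0.70 against eutopic endometrium (adjusted p = 1). Csf2rb, the common beta chain of the interleukin-3, interleukin-5 and GM-CSF receptors, read 3.52, 1.29 and 2.34 in ERBOE lesions against -0.42, -0.61 and -0.48 in ERBOE uterus. It rose there by 2.89 ± 0.60 (adjusted p = 0.0308), and by 2.10 ± 0.60 against ERBOE eutopic endometrium (adjusted p = 0.172). Csf2rb was also higher in PRCre lesions than in PRCre eutopic endometrium, by 1.42 ± 0.60 (limma, unadjusted p = 0.0331), which did not pass after adjustment. The calls in ERBOE lesions depended on single arrays and on the fit. Against ERBOE uterus, Il33 no longer passed without ERBOE uterus array 1 (adjusted p = 0.0756) or ERBOE lesion array 1 (0.0902), and Csf2rb no longer passed without ERBOE uterus array 1 (0.106), 2 (0.111) or 3 (0.0828) or ERBOE lesion array 1 (0.164) or 3 (0.0941). Against ERBOE eutopic endometrium, Il33 no longer passed without ERBOE lesion array 1 (0.140) or 3 (0.0641) or ERBOE eutopic array 2 (0.0894) or 3 (0.0717). With the mean of all probes of a gene, Il33 against ERBOE eutopic endometrium had an adjusted p of 0.0623 and Csf2rb against ERBOE uterus one of 0.0872, and with the compared groups alone these were 0.177 and 0.0832. Markers of other cells moved with both genes, as given above, and their part was not tested. The list as a whole had a median difference of 0.79 over its 35 tested genes in ERBOE lesions against ERBOE uterus (27 higher, 8 lower), against -0.07 over all features, of which 43.7% were higher, with Gata2 at -0.98 ± 0.30 (adjusted p = 0.153).

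**Figure D5:**
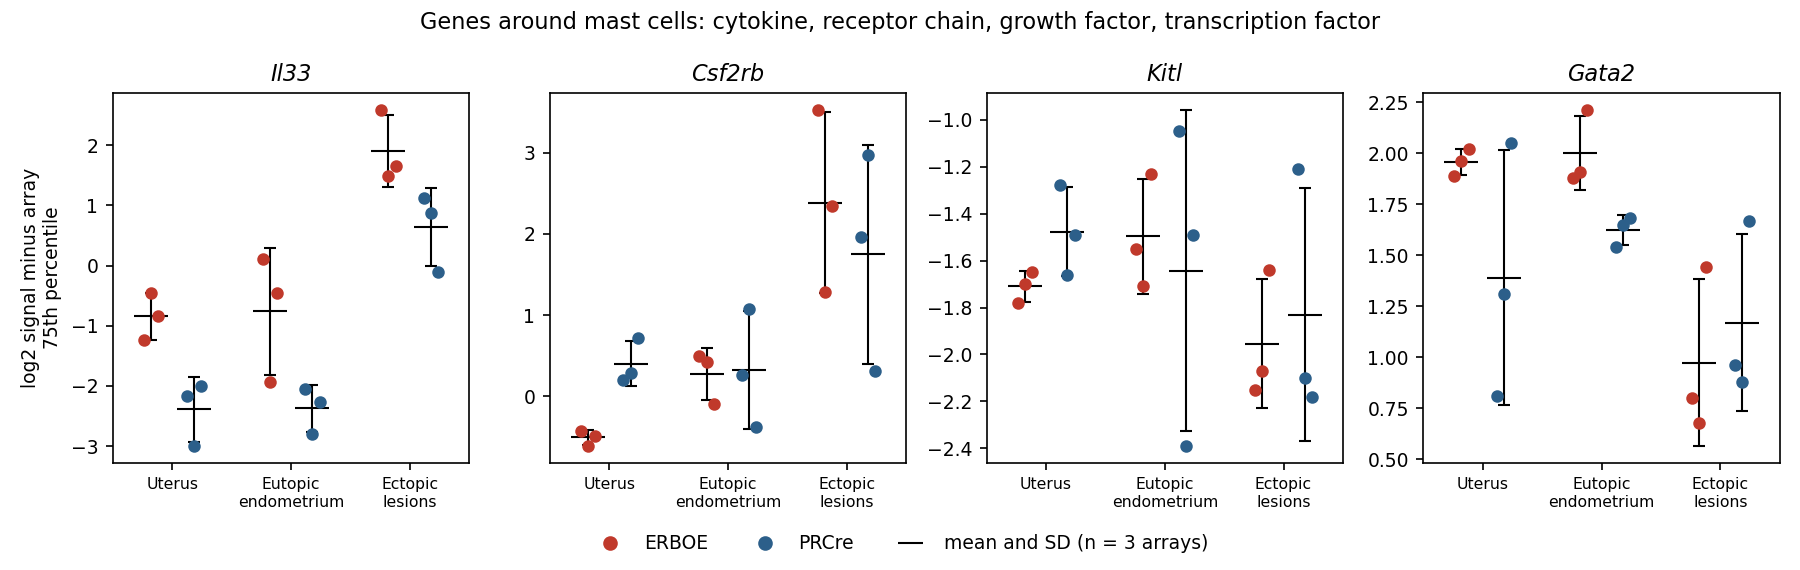
Level of Il33, Csf2rb, Kitl and Gata2 on each array (log2 signal minus the array's 75th percentile), by tissue, with ERBOE in red left of PRCre in blue; black bars are the mean and SD of 3 arrays. Il33 in ERBOE lies above PRCre in each tissue and is highest in lesions (1.48 to 2.58 in ERBOE and -0.10 to 1.13 in PRCre), while the Kitl groups overlap in each tissue.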

How the data were processed

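Total RNA of mouse uterus, eutopic endometrium and ectopic lesions was labelled with Cy3 and read on 18 single-colour Agilent arrays. The deposited scanner files hold 1 intensity per spot, background-subtracted by the scanner software per the file headers. Log2 values in the deposited table of the series equal the scanner values after 75th percentile scaling and centring of each probe (r = 1.0 over 53207 probes, column medians -0.15 to 0.36), so it is no independent measurement; how the authors made it is not stated per the labels.

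Here log2 of the processed signal minus the array's 75th percentile was used. Control and outlier spots were left out, spots of a probe were averaged, probes were named through their accessions, and the brightest probe stood for a symbol. Features well above background on at least 3 of 18 arrays (33176, of which 17900 had a symbol) entered 1 limma 3.58.1 fit of 6 group means in R 4.3.3, with empirical Bayes moderation, 2-sided tests and Benjamini-Hochberg adjustment over all features at 0.05. The fit was tested on simulated data. Members and gene lists were chosen with earlier results of these data known. The named genes are the members, the 5 nearest to Cpa3 by each correlation, and Kitl, Gata2, Mitf, Hdc and Fcer1g for their roles. Of the companion list, the called genes are named, and for ERBOE against PRCre within a tissue the 3 with the largest difference. The largest uncalled differences of that list between tissues, and between genotype effects, are not all named.

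Same-number correlations of deviations from group means all exceeded 0.1 in 2 of the 9 comparisons. These were ERBOE against PRCre uterus (0.40, 0.31 and 0.44, where numbers coincide with slides) and PRCre lesions against PRCre eutopic endometrium (0.34, 0.23 and 0.13). The labels do not say that replicate numbers link animals, and these correlations do not show a pairing. Alternatives covered background correction, normalization, filter, probe choice, slide and replicate blocks, array weights, the arrays entering the fit and single arrays left out.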

Additional observations from a re-analysis of the deposited data

Results flagged for a closer look

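Mcpt2, the mucosal mast cell chymase, did not enter the comparisons because it was well above background on too few arrays. It was well above background on ERBOE uterus arrays 1 and 2, at -4.16 and -3.31 (log2 signal minus the array's 75th percentile), and on 0 of the 3 PRCre uterus arrays, which makes it a signal in data the comparisons did not use. The lowest level called well above background was -3.49 on PRCre uterus array 1 and -4.0 on array 3, both above -4.16. No fold is given because the approximate bound on it, 0.631, is under 1. Mcpt8, the basophil protease, was likewise left out and was well above background on ERBOE lesion array 1, at -3.27, and on 0 of the 3 PRCre lesion arrays. Its bound, 0.856, is under 1 too, and no fold is given. The causes were not tested.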

How the results depend on the processing

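Over 12 results, the number of members that passed was 0 and was as reported in 217 of 222 alternative values. The exceptions were all for ERBOE lesions minus ERBOE uterus, where 1 member passed with normexp background correction, 1 with the filter on all 18 arrays, 1 with slide as a block and 3 with array weights, and where leaving out single arrays gave 0 to 1. Of 1145 values for single genes, 16 reversed. Normexp gave -0.08 for Fcer1a in ERBOE eutopic endometrium minus ERBOE uterus, and leaving out single arrays gave -0.02 to 0.51. For ERBOE minus PRCre in lesions, array weights gave -0.21 for Cpa3 and -0.24 for Fcer1a, and leaving out single arrays gave -0.40 to 0.83 for Cpa3, -0.64 to 0.50 for Mcpt4, -0.15 to 1.00 for Cma1 and -0.36 to 0.55 for Fcer1a. In eutopic endometrium those ranges were -0.22 to 0.09 for Tpsb2 and -0.33 to 0.49 for Kit. The cause of these reversals was not tested. Over all features, the 411 calls of ERBOE lesions minus ERBOE uterus became 2388 with array weights and 121 to 403 without single ERBOE arrays, and the 205 calls of ERBOE lesions minus ERBOE eutopic endometrium became 1239 with array weights, 121 with the filter on all 18 arrays, 116 with the compared groups alone and 62 to 232 without single ERBOE arrays. The 3 calls of PRCre lesions minus PRCre uterus became 115 with normexp, 72 with array weights, 43 with quantile normalization, 40 with median scaling, 9 with the filter on all 18 arrays, 0 with the compared groups alone and 1 to 63 without single PRCre arrays, highest without PRCre lesion array 3. The 1 call of PRCre lesions minus PRCre eutopic endometrium became 27 with array weights, 7 with normexp, 6 with median scaling, 0 with the filter on all 18 arrays or the compared groups alone and 1 to 50 without single PRCre arrays, highest without PRCre lesion array 3. ERBOE minus PRCre had 0 calls in uterus and in lesions, and 9 and 6 with array weights. With the replicate number as a block, 0 members passed in all 12 results, ERBOE lesions minus ERBOE uterus had 406 calls and PRCre lesions minus PRCre uterus had 15, and the block changed no member's call but gained Il33 in the second (adjusted p = 0.0442), and 8 of 18 arrays deviated most like an array of their own number. Single genes were not recomputed for most PRCre tissue comparisons. With 3 pools a group, member intervals span more than 1 log2 unit, and the 4 dim members lie too close to background to compare.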
